A study of Mus musculus with 17 samples.

Results

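Macrophage and myeloid genes were followed in RNA from the glomeruli-enriched kidney cortex of diabetic BTBR ob/ob mice with and without endothelin receptor blockade. The set holds 37 genes of 53379 gene rows in the count table, of which 33758 rows had at least 1 read. The genes were chosen by symbol, as receptors, signalling molecules, phagocyte oxidase subunits and lysosomal products of macrophages, with the C1q subunits left out. Each symbol matched 1 gene row, and all 37 passed the filter on low counts.

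The study compared 3 groups of mice on the BTBR strain. Of the ob/ob mice, which lack leptin through the ob mutation of Lep, 7 received atrasentan, an endothelin A receptor antagonist, at 5 mg per kg body weight per day in the drinking water, and 5 received saline. Both treatments ran for 6 weeks, from 18 to 24 weeks of age, and the controls were 5 lean, untreated wild type mice of the BTBR strain, taken at that same age. All groups had the same tissue preparation, poly(A) selection, an unstranded library kit and single-end sequencing on an Illumina HiSeq. In the genotype labels the atrasentan mice are 'BTBR ob', the saline mice 'ob/ob-d30' and the wild type mice 'WT-d30', and no source used here explains the added part. The labels do not give the sex. Loss of leptin is present in every cell from birth, so obesity, diabetes and missing leptin signalling cannot be told apart in these mice, and no lean mice given atrasentan are among the groups. Leptin is made in fat, and Lep had at most 1 read in any library, so its count does not check the genotype labels.

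Macrophages are phagocytes of the innate immune system that depend on the growth factor receptor CSF1R and on the ETS transcription factor PU.1, encoded by Spi1. They read antibody-coated particles through Fc gamma receptors, which signal through adaptor chains with ITAM motifs, and they kill with the superoxide-producing NADPH oxidase and degrade cargo in lysosomes. In diabetic kidneys, macrophages are known to gather in glomeruli and in the interstitium.

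Gene reads per library ran from 37252939 to 52528747 with atrasentan, from 35938445 to 40268662 with saline and from 29161833 to 40965108 in wild type. The atrasentan libraries stood apart in 2 library measures. Between 21396 and 23081 genes had at least 1 read with atrasentan, against 24335 to 25313 with saline and 23901 to 24877 in wild type, and reads outside genes made up 3.17% to 5.65% with atrasentan, against 5.95% to 8.17% with saline and 6.26% to 8.58% in wild type. Neither measure overlapped between the atrasentan libraries and the others, so an effect of library quality and an effect of atrasentan cannot be told apart by group. Markers of podocytes, glomerular endothelium and mesangium were present in every library. Saline libraries 1 and 3 also held the most proximal tubule RNA, with 10 marker genes summing to 8658, 2153, 8711, 1824 and 5025 CPM (reads of a gene scaled to the size of its library) in saline libraries 1 to 5, against 183 to 1294 CPM with atrasentan and 1013 to 2393 CPM in wild type.

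Most of the macrophage genes were higher with atrasentan than with saline. Of the 37, 27 rose (73.0%, against 15.3% of all 17766 genes tested), 1 fell (18.5% of all genes) and 9 did not pass edgeR's quasi-likelihood test at an adjusted p of 0.05. The median log2 fold change of the set was 1.11, beside -0.01 over all genes. For 12 members every atrasentan library lay above every saline library, as for 6.07% of all genes, and for 0 members every atrasentan library lay below, as for 5.76% of all genes. Aif1, a calcium-binding protein of activated macrophages, had the highest fold change (log2 fold change 2.87 ± 0.61, edgeR adjusted p = 0.00211), and Fcgr2b, the inhibitory Fc gamma receptor, was the member that fell (log2 fold change -1.68 ± 0.30, edgeR adjusted p = 0.000639). In bulk tissue, fewer or more cells of a type and less or more RNA per cell cannot be told apart. With the mean level of proximal tubule markers as a covariate edgeR called 0 members, and 0 of all 17766 genes higher and 1 lower. In that fit 7 of the 37 members had an unadjusted p under 0.05, beside 2473 of all 17766 genes. The log2 fold changes of all 37 members were above 0 there. Without saline library 1 there were 18 members called higher (11.2% of all genes).

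In the diabetic mice without the drug no member passed the test. Between ob/ob mice given saline and wild type mice, 0 of the 37 were called higher (3.21% of all genes) and 0 lower (1.91% of all genes) by edgeR. At an unadjusted p under 0.05 there were 2, both higher with saline, Fcgr2b (log2 fold change 1.02 ± 0.32, edgeR adjusted p = 0.0722) and Trem2, a lipid-sensing receptor of macrophages (log2 fold change 0.79 ± 0.37, edgeR adjusted p = 0.216), and DESeq2 called 1, Fcgr2b. Over all genes 3825 of 17766 had an unadjusted p under 0.05 by edgeR, and DESeq2 called 7.80% higher. The median log2 fold change of the set was -0.12, beside 0.01 over all genes, with 14 members above 0 and 23 below. That sign rests on single libraries and settings. Without wild type library 5 the median was 0.15 with 26 members above 0, without wild type library 4 it was 0.028 with 20, and without saline libraries 1 and 3 it was 0.062 with 23. It was 0.023 with 19 above 0 by limma-voom and 0.092 with 26 above 0 with reads outside genes as a covariate. No member had groups that did not overlap, whereas 3.46% of all genes lay wholly higher and 3.96% wholly lower with saline.

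Against wild type mice, atrasentan-treated ob/ob mice had 21 members called higher (14.7% of all genes) and 0 called lower (14.5% of all genes), with 1 lower at an unadjusted p under 0.05, Fcgr2b, and 0 called lower by DESeq2. The median log2 fold change was 1.02, beside -0.01 over all genes, and 10 members were higher in all 7 atrasentan libraries than in any wild type library (6.16% of all genes) and 0 were lower (7.06%). This comparison uses the same atrasentan libraries as the one with saline, so the 2 are not independent. With the percentage of reads outside genes, on which the atrasentan libraries stood wholly apart, as a covariate, 3 members were called higher (1.49% of all genes). The calls fell there but the estimates did not, since the median log2 fold change of the members was 2.14, with 34 above 0. At an unadjusted p under 0.05 there were 28 members in that fit, beside 3669 of all 17766 genes. Tyrobp, Lst1, Ncf4, Coro1a, Cd53 and Pld4 were called against saline and did not pass against wild type, where their adjusted p ran from 0.0624 for Pld4 to 0.117 for Cd53. Their log2 fold changes against wild type ran from 0.47 for Cd53 to 1.02 for Lst1.

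**Figure D1:**
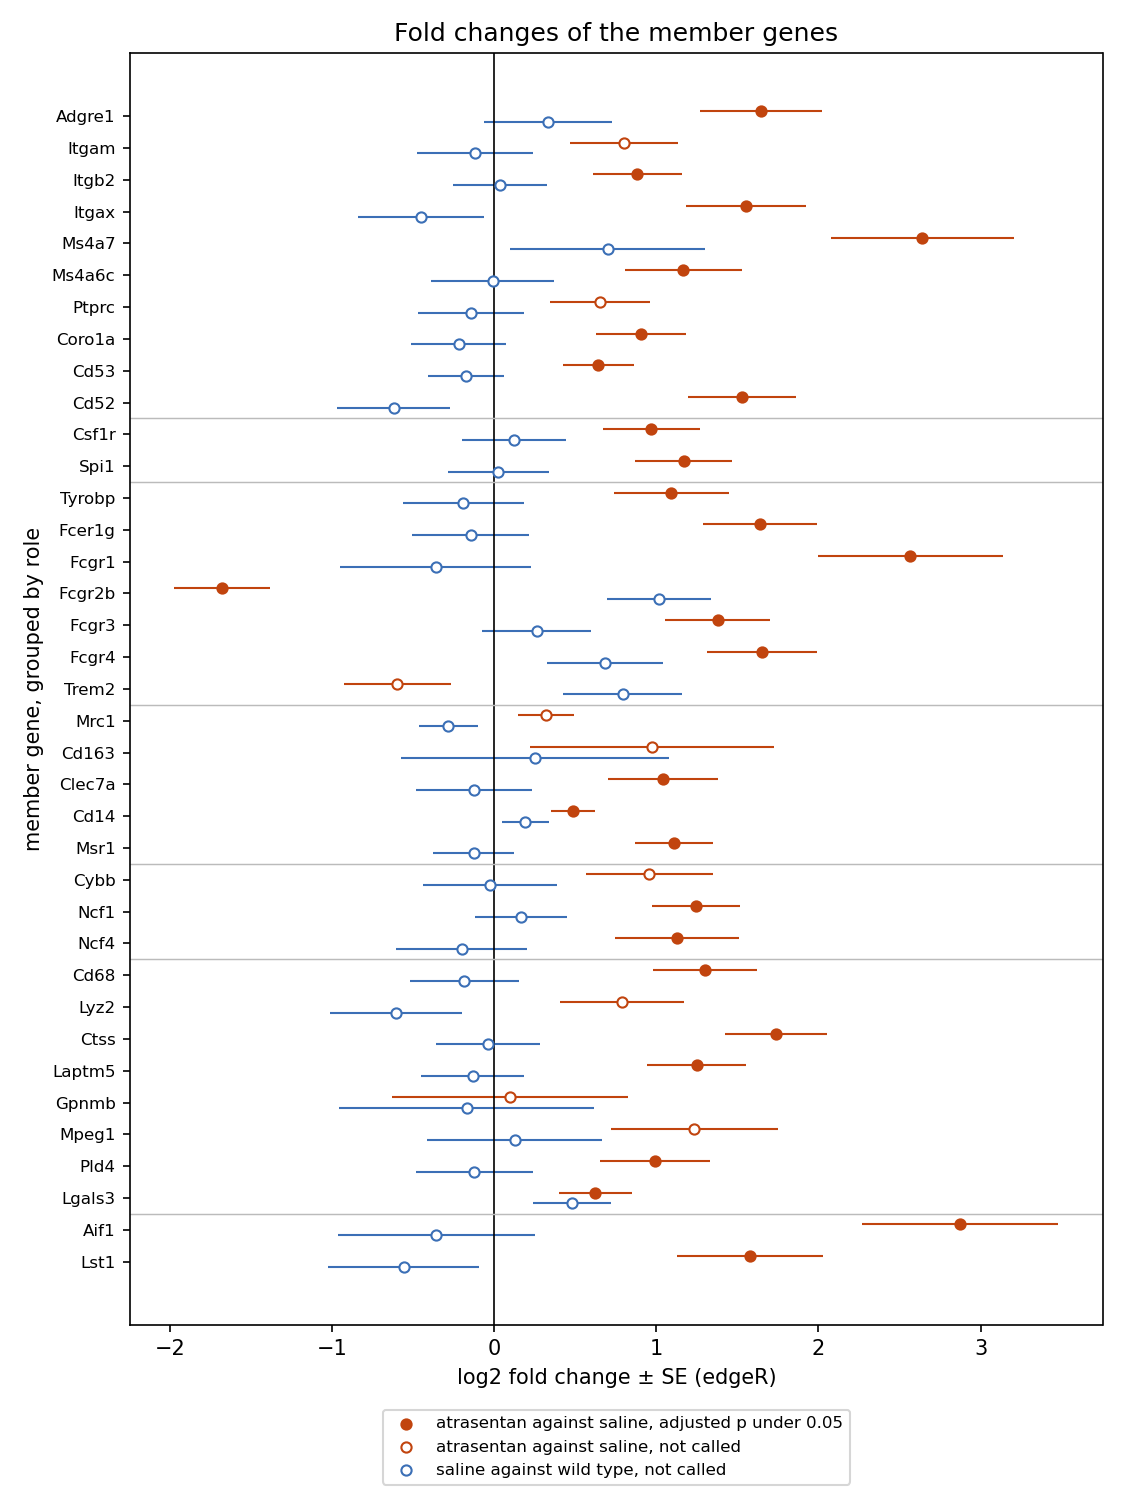
Each row is a gene and the x axis is the log2 fold change with its standard error from edgeR. Orange points compare atrasentan with saline (filled where the adjusted p is under 0.05) and blue points compare saline with wild type, where no gene was called. The orange points lie between -1.68 for Fcgr2b and 2.87 for Aif1, with 35 of 37 above 0, and the blue points lie between -0.62 and 1.02.

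Of 10 surface and leukocyte identity genes, 8 rose with atrasentan against saline (15.3% of all genes) and 6 against wild type (14.7%). Ms4a7 (chr19:11321039-11336146 on GRCm38), a tetraspan membrane protein of tissue macrophages, stood at 2.18, 1.55, 11.9, 2.85, 4.93, 1.28 and 1.83 CPM in atrasentan libraries 1 to 7, against 0.762, 0.196, 0.824, 0.722 and 0.520 CPM in saline libraries 1 to 5. Wild type libraries 1 to 5 held 0.510, 0.151, 0.284, 0.426 and 0.472 CPM. The lowest of these values, in library 2, rests on 5 reads. Every atrasentan library lay above all 10 others, and atrasentan library 3 was the highest of its group. The difference was called against saline (log2 fold change 2.64 ± 0.57, edgeR adjusted p = 0.00232) and against wild type (log2 fold change 3.34 ± 0.60, edgeR adjusted p = 0.000539). Without atrasentan library 3 the log2 fold change of Ms4a7 was 2.01 against saline and 2.71 against wild type, both called.

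Adgre1, the adhesion receptor used as the classical marker of mouse macrophages, averaged 9.37 ± 6.23 CPM with atrasentan, 2.99 ± 0.779 CPM with saline and 2.38 ± 0.971 CPM in wild type (SD, n = 7, 5 and 5), and its 7 atrasentan libraries did not overlap the other groups (log2 fold change 1.65 ± 0.38, edgeR adjusted p = 0.00355 against saline). Itgax, the integrin alpha chain of dendritic cells and some macrophages, rose to 4.90 ± 2.17 CPM with atrasentan, against 1.67 ± 0.607 CPM with saline (log2 fold change 1.55 ± 0.37, edgeR adjusted p = 0.00455). Itgb2, the beta chain that pairs with Itgax and Itgam, rose as well (log2 fold change 0.88 ± 0.27, edgeR adjusted p = 0.02). Itgam, the alpha chain of monocytes, neutrophils and macrophages, did not pass (log2 fold change 0.80 ± 0.33, edgeR adjusted p = 0.072). Ms4a6c, a relative of Ms4a7, was called (log2 fold change 1.17 ± 0.36, edgeR adjusted p = 0.0195), but a gene on the other strand overlaps it and their reads cannot be told apart.

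The remaining members of this class are made by most leukocytes, lymphocytes included. Cd52, a short glycosylated surface peptide, rose (log2 fold change 1.53 ± 0.33, edgeR adjusted p = 0.00269), as did Cd53, a tetraspanin (log2 fold change 0.64 ± 0.22, edgeR adjusted p = 0.0321), and Coro1a, an actin regulator of leukocytes (log2 fold change 0.91 ± 0.28, edgeR adjusted p = 0.0189), which overlaps Bola2 on the other strand. Ptprc, the tyrosine phosphatase CD45 that marks all leukocytes, stood at 48.8 ± 15.5 CPM with atrasentan and 31.1 ± 10.6 CPM with saline and did not pass (log2 fold change 0.65 ± 0.31, edgeR adjusted p = 0.109). Of the T and NK cell markers, 4 of 11 were called higher with atrasentan against saline (15.3% of all genes). Their summed level ran over 13.5 to 33.2 CPM with atrasentan, 10.2 to 18.8 with saline and 12.8 to 27.5 in wild type. Of the B and plasma cell markers 2 of 6 tested were called higher, beside the same 15.3% of all genes. Their sum ran over 53.7 to 164 CPM with atrasentan, 17.8 to 56.5 with saline and 36.7 to 117 in wild type. The part of lymphocytes in the change of the shared leukocyte genes was not tested.

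Both genes that govern macrophage identity rose. Csf1r, the receptor for CSF1 and IL-34, ran from 40.2 to 99.1 CPM with atrasentan (median 52.7) and held 28.03, 19.6, 35.6, 33.1 and 47.9 CPM in saline libraries 1 to 5 and 29.3, 17.9, 16.8, 48.4 and 38.6 CPM in wild type libraries 1 to 5. The groups overlapped, through saline library 5 and wild type library 4 (log2 fold change 0.97 ± 0.30, edgeR adjusted p = 0.0202 against saline). Csf1r overlaps Hmgxb3 on the other strand, so part of its count could belong to that gene. Spi1 ran from 20.9 to 62.8 CPM with atrasentan (median 30.98), against 9.93, 16.3, 14.5, 14.9 and 21.5 CPM with saline and 18.8, 8.53, 9.14, 18.8 and 20.4 CPM in wild type. All 7 atrasentan libraries were above every wild type library, and 6 of 7 were above every saline library (log2 fold change 1.17 ± 0.30, edgeR adjusted p = 0.00682 against saline, 1.20 ± 0.30 and adjusted p = 0.0064 against wild type).

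The activating Fc gamma receptors rose with atrasentan against saline, and the only inhibitory one, Fcgr2b, fell. Fcgr1, Fcgr3 and Fcgr4 signal through the activating adaptor chain encoded by Fcer1g, while Fcgr2b carries an inhibitory motif of its own. Fcgr2b (chr1:170958617-170976547), Fcgr4 (chr1:171018920-171029761), Fcgr3 (chr1:171051174-171064935) and Fcer1g (chr1:171229572-171234365) are neighbours on GRCm38 chromosome 1, and Fcgr1 lies on chromosome 3 (chr3:96282909-96293969). The Fc gamma receptors are alike in sequence, and reads that align to more than 1 place are in no gene's count, so their levels carry that uncertainty.

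Fcgr4, the receptor for IgG2 antibodies in the mouse, stood at 14.2, 9.55, 22.9, 8.20, 7.96, 7.78 and 7.27 CPM in atrasentan libraries 1 to 7 and at 2.94, 3.58, 2.30, 3.37 and 5.48 CPM in saline libraries 1 to 5. Wild type libraries 1 to 5 held 2.30, 2.71, 0.853, 2.80 and 2.33 CPM. No atrasentan library came as low as any other library (log2 fold change 1.65 ± 0.34, edgeR adjusted p = 0.00174 against saline, 2.34 ± 0.35 and adjusted p = 0.000144 against wild type). Fcgr1, the high-affinity receptor, averaged 3.23 ± 2.22 CPM with atrasentan and 0.541 ± 0.197 CPM with saline (log2 fold change 2.57 ± 0.57, edgeR adjusted p = 0.00295). Its low levels rest on few reads, with 4 in its lowest library, wild type library 2. Fcgr3, the low-affinity activating receptor, averaged 22.7 ± 13.1 CPM with atrasentan and 8.73 ± 2.01 CPM with saline (log2 fold change 1.38 ± 0.32, edgeR adjusted p = 0.0041), and all 7 atrasentan libraries were above the other groups for Fcgr1 and for Fcgr3.

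Fcer1g stood at 54.1, 35.3, 119.6, 37.9, 49.2, 23.1 and 33.9 CPM with atrasentan and at 11.4, 15.04, 15.5, 15.8 and 23.3 CPM with saline. The wild type libraries held 16.8, 12.7, 12.3, 17.8 and 29.9 CPM. The lowest atrasentan library, number 6, lay just under the highest saline library, number 5, and the other 6 were above all saline libraries (log2 fold change 1.64 ± 0.35, edgeR adjusted p = 0.00226). Tyrobp, the adaptor chain of TREM2 and of several other receptors, rose (log2 fold change 1.09 ± 0.35, edgeR adjusted p = 0.0252), and lost its call without atrasentan library 3, saline library 1 or saline library 3. Trem2 itself was low, with 0.657 ± 0.212 CPM with atrasentan, 0.998 ± 0.227 CPM with saline and 0.576 ± 0.276 CPM in wild type (log2 fold change -0.60 ± 0.33, edgeR adjusted p = 0.171 against saline).

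Fcgr2b went the other way. It stood at 2.13, 1.63, 3.88, 1.92, 2.01, 2.34 and 1.83 CPM in atrasentan libraries 1 to 7, against 11.3, 3.996, 9.46, 2.98 and 8.26 CPM in saline libraries 1 to 5. In wild type libraries the level was 2.86, 3.44, 3.22, 4.72 and 3.54 CPM. Saline libraries 1, 3 and 5 were high, and 6 of 7 atrasentan libraries lay below every saline library (log2 fold change -1.68 ± 0.30, edgeR adjusted p = 0.000639 against saline, -0.66 ± 0.30 and adjusted p = 0.103 against wild type). The same saline libraries 1, 3 and 5 held the most proximal tubule marker RNA. In the fit with that marker level as a covariate the log2 fold change of Fcgr2b against saline was 0.0076, and leaving out saline libraries 1 and 3 gave -1.17, still called (edgeR adjusted p = 0.0176).

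Within a library, the ratios of Fcgr4 and of Fcgr3 to Fcgr2b did not overlap between atrasentan and the other groups. The ratio of Fcgr4 to Fcgr2b counts was 6.70, 5.85, 5.91, 4.26, 3.96, 3.33 and 3.97 in atrasentan libraries 1 to 7, against 0.261, 0.895, 0.243, 1.13 and 0.664 in saline libraries 1 to 5 and 0.806, 0.789, 0.265, 0.594 and 0.658 in wild type libraries 1 to 5. The ratio of Fcgr3 to Fcgr2b ran from 4.95 to 13.1 with atrasentan, from 0.706 to 2.55 with saline and from 1.25 to 3.04 in wild type. These ratios do not depend on the scaling of the libraries, they were not tested, and they follow from the members' own changes given above.

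**Figure D2:**
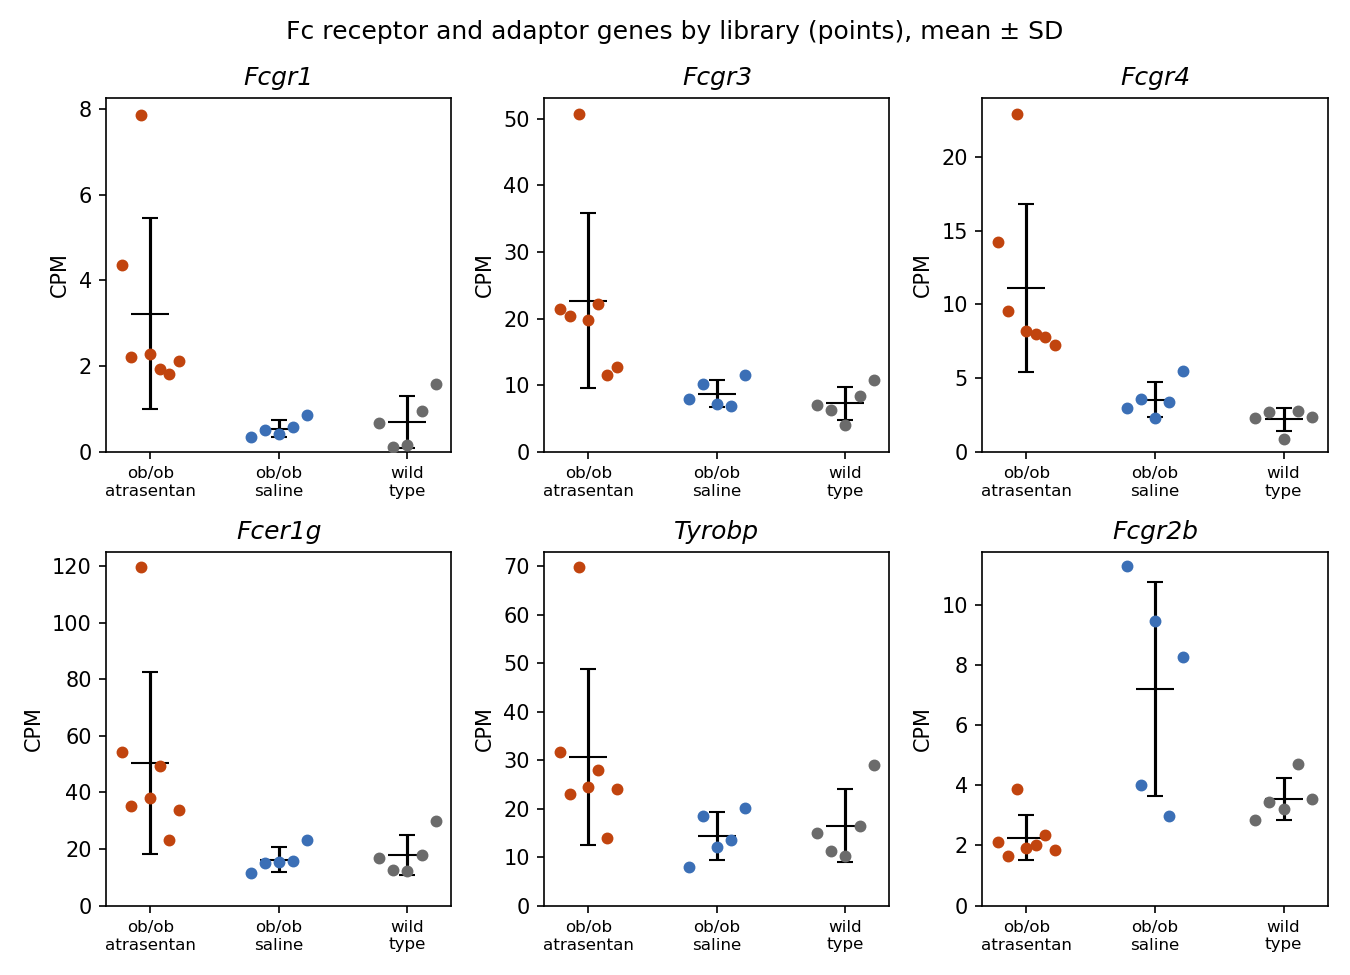
Each panel is a gene and the y axis is its level in CPM, from 0. Points are libraries, the horizontal line is the mean and the bars are the SD of the group (7 atrasentan, 5 saline and 5 wild type libraries). Fcgr1, Fcgr3 and Fcgr4 lie higher in all 7 atrasentan libraries than in any other, while Fcgr2b has its lowest mean with atrasentan and spreads from 2.98 to 11.3 CPM with saline.

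Of the 5 pattern and scavenger receptors, 3 rose in each comparison with atrasentan (15.3% of all genes against saline, 14.7% against wild type). Msr1 (chr8:39581685-39642673), the class A scavenger receptor for modified lipoproteins, stood at 50.4, 41.6, 78.4, 43.4, 54.8, 60.6 and 59.1 CPM with atrasentan and at 16.5, 28.6, 17.3, 27.6 and 38.7 CPM with saline. The wild type libraries held 45.8, 24.2, 20.2, 22.1 and 28.03 CPM. The atrasentan libraries were close together and above every saline library, and wild type library 1 lay among them (log2 fold change 1.11 ± 0.24, edgeR adjusted p = 0.00241 against saline). Cd14, the lipopolysaccharide co-receptor, rose less than Msr1, with 45.5 ± 6.21 CPM with atrasentan, 32.4 ± 8.76 CPM with saline and 28.4 ± 1.95 CPM in wild type (log2 fold change 0.49 ± 0.14, edgeR adjusted p = 0.0114 against saline, 0.68 ± 0.14 and adjusted p = 0.0014 against wild type). Its atrasentan libraries differed by at most 1.46 times, and all 7 lay above every wild type library. Only 2 of 7 atrasentan libraries lay above every saline library, because saline library 2 held 47.9 CPM. Clec7a, the beta-glucan receptor dectin-1, rose (log2 fold change 1.04 ± 0.34, edgeR adjusted p = 0.0254).

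The scavenger receptors that mark perivascular and alternatively activated macrophages did not pass. Mrc1, the mannose receptor, which sinusoidal and lymphatic endothelium also express, stood at 129 ± 34.9 CPM with atrasentan, 103 ± 13.3 CPM with saline and 126 ± 19.8 CPM in wild type (log2 fold change 0.32 ± 0.17, edgeR adjusted p = 0.155 against saline). Cd163, the haemoglobin scavenger receptor, was among the lowest members and ran from 0.0272 to 2.70 CPM with atrasentan, the widest spread of any member within that group, against 0.140 to 0.657 CPM with saline (log2 fold change 0.97 ± 0.75, edgeR adjusted p = 0.332).

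Of the 3 phagocyte oxidase subunits, 2 rose with atrasentan against saline (15.3% of all genes). Ncf1 (chr5:134220053-134229625), the cytosolic organiser subunit, stood at 13.8, 14.6, 20.4, 10.8, 8.75, 8.66 and 7.85 CPM with atrasentan and at 4.62, 5.09, 3.49, 4.86 and 7.46 CPM with saline. Wild type mice had 5.07, 3.44, 2.81, 4.72 and 6.72 CPM. No atrasentan library overlapped either of the other groups (log2 fold change 1.25 ± 0.27, edgeR adjusted p = 0.00254 against saline, 1.41 ± 0.27 and adjusted p = 0.00103 against wild type). Ncf1 overlaps Gtf2ird2 on the other strand, and their reads cannot be told apart. Ncf4, another cytosolic subunit, rose against saline (log2 fold change 1.13 ± 0.38, edgeR adjusted p = 0.0303). Cybb, the catalytic membrane subunit, had a log2 fold change of similar size and missed the threshold (log2 fold change 0.96 ± 0.39, edgeR adjusted p = 0.0664), with 26.5 to 89.3 CPM with atrasentan, 18.3 to 41.9 CPM with saline and 10.01 to 44.3 CPM in wild type.

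Of the 8 lysosomal and effector genes, 5 rose against saline (15.3% of all genes) and 4 against wild type (14.7%). Ctss (chr3:95526786-95556403), the cysteine protease cathepsin S that trims the invariant chain of MHC class II, stood at 101, 85.3, 208, 80.5, 68.9, 66.6 and 57.4 CPM with atrasentan and at 22.9, 23.9, 27.5, 30.9 and 37.9 CPM with saline. In wild type libraries the level was 29.4, 21.5, 16.03, 34.9 and 45.3 CPM. The lowest atrasentan library was above the highest of the others (log2 fold change 1.74 ± 0.31, edgeR adjusted p = 0.000729 against saline, 1.70 ± 0.31 and adjusted p = 0.000681 against wild type). Cd68, a glycoprotein of macrophage lysosomes, averaged 26.6 ± 14.9 CPM with atrasentan and 10.8 ± 2.91 CPM with saline (log2 fold change 1.30 ± 0.32, edgeR adjusted p = 0.00578). Laptm5, a lysosomal membrane protein of leukocytes, averaged 87.3 ± 32.7 CPM with atrasentan and 36.8 ± 10.4 CPM with saline (log2 fold change 1.25 ± 0.31, edgeR adjusted p = 0.00527).

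Pld4, an endolysosomal nuclease, rose against saline (log2 fold change 0.99 ± 0.34, edgeR adjusted p = 0.033), as did Lgals3, the lectin galectin-3, which injured epithelium also makes (log2 fold change 0.62 ± 0.23, edgeR adjusted p = 0.041). Neither call was stable, since with each of the 17 libraries left out in turn Lgals3 was called in 10 fits and Pld4 in 11. The other calls that some of these fits lost were Cd53 (called in 12), Ncf4 and Clec7a (13 each), Tyrobp (14), and Itgb2, Ms4a6c and Coro1a (16 each, lost without saline library 1). Lgals3 had 7 of 7 atrasentan libraries above every wild type library and 4 of 7 above every saline library. Lyz2 (chr10:117277331-117282321), the lysozyme of macrophages and neutrophils, stood at 423, 173, 517, 331, 306, 109 and 207 CPM with atrasentan and at 103, 123, 199, 170.5 and 259 CPM with saline. The wild type libraries held 179.96, 146, 144, 339.6 and 491 CPM. The spread within groups was as wide as the difference between them, and Lyz2 did not pass (log2 fold change 0.79 ± 0.38, edgeR adjusted p = 0.12 against saline, 0.18 ± 0.38 and adjusted p = 0.752 against wild type). Lyz2 has a close copy, Lyz1, so its level is uncertain. Mpeg1, the pore-forming protein perforin-2, did not pass (log2 fold change 1.23 ± 0.51, edgeR adjusted p = 0.0714), nor did Gpnmb, a glycoprotein of lipid-laden macrophages (log2 fold change 0.10 ± 0.73, edgeR adjusted p = 0.933).

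The remaining members, Aif1 and Lst1, both rose against saline. Aif1 (chr17:35170991-35176068) stood at 6.28, 7.68, 31.3, 5.42, 5.17, 2.45 and 4.01 CPM with atrasentan and at 1.21, 0.615, 1.25, 1.03 and 1.95 CPM with saline. Wild type mice had 2.17, 0.603, 0.695, 1.55 and 2.71 CPM. All atrasentan libraries were above all saline libraries, and the level in atrasentan library 3 was several times that in any other. Without atrasentan library 3 the log2 fold change was 2.09 against saline (adjusted p = 0.00184) and 1.73 against wild type (adjusted p = 0.0048), both still called. Lst1, a transmembrane adaptor of leukocytes, rose against saline (log2 fold change 1.58 ± 0.45, edgeR adjusted p = 0.0125) and did not pass against wild type (log2 fold change 1.02 ± 0.44, edgeR adjusted p = 0.0877).

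**Figure D3:**
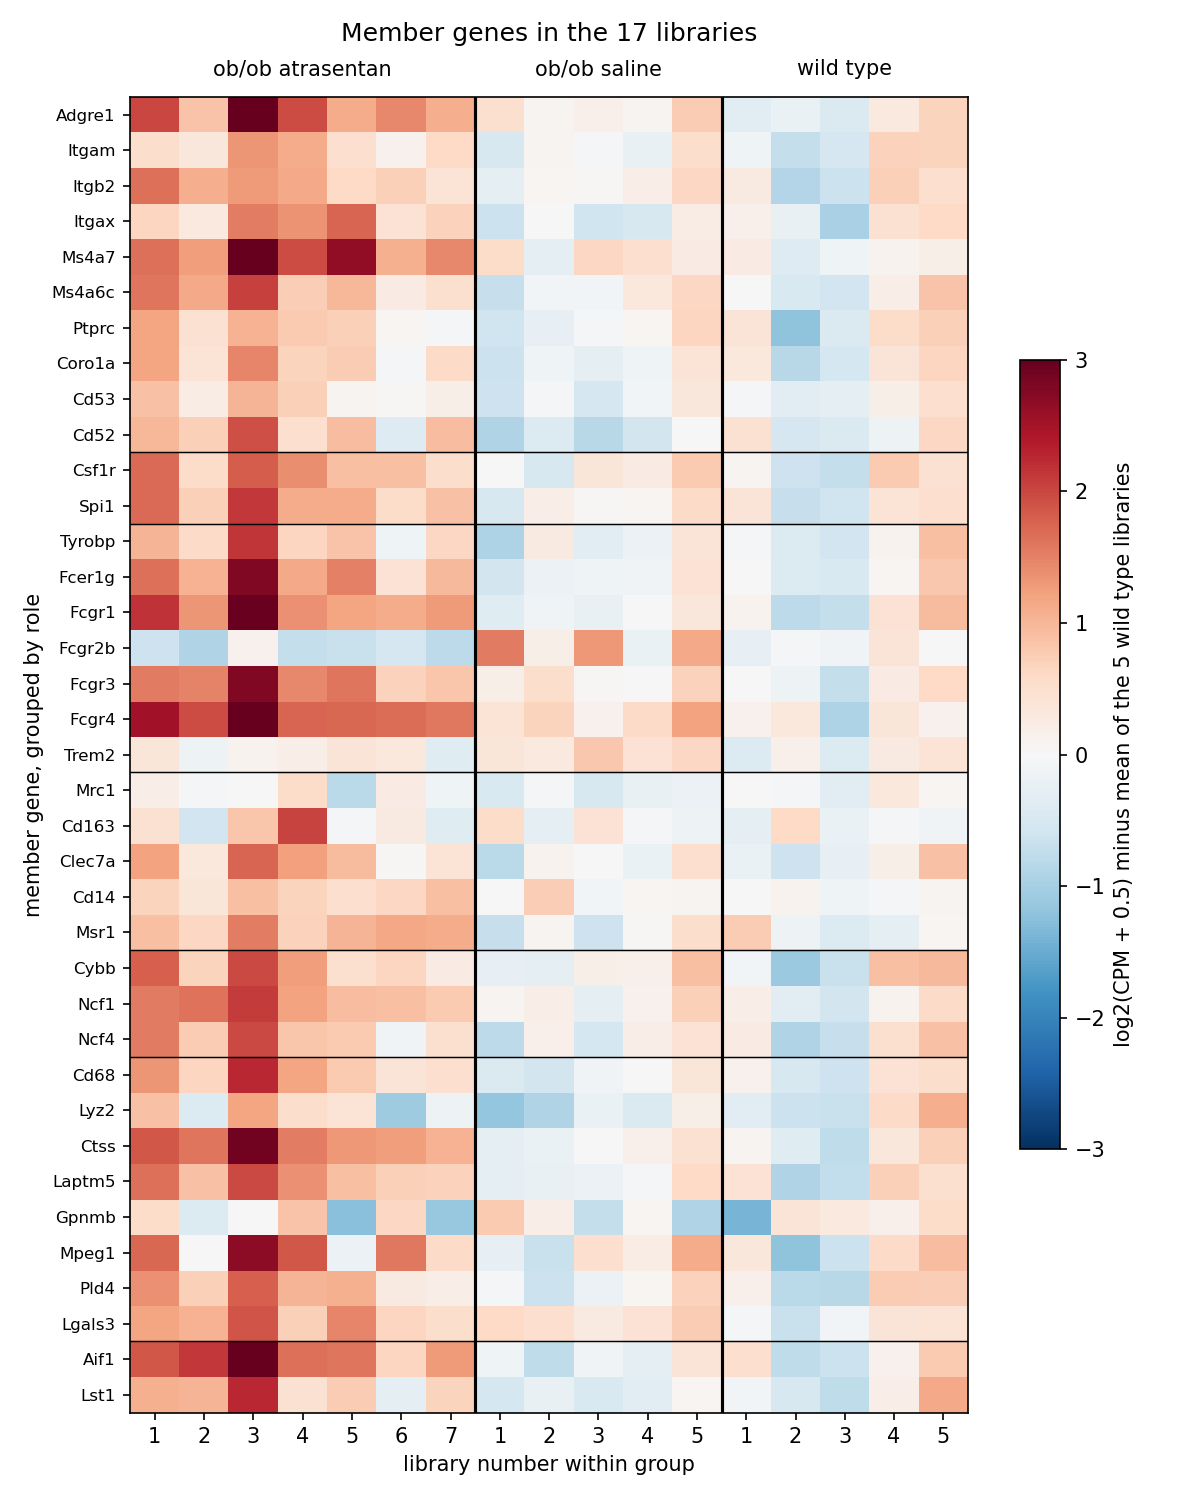
Rows are the 37 genes in order of role and columns are the 17 libraries. The colour is log2(CPM + 0.5) minus the mean of the 5 wild type libraries, with the scale ending at 3 and -3. The atrasentan columns are mostly red, atrasentan library 3 is the deepest for most rows, and Fcgr2b is blue in 6 of 7 atrasentan columns, all but library 3, and red in saline libraries 1, 3 and 5.

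In each group 1 library was the highest for most members. Atrasentan library 3 was the highest of its group for 30 of 37 members, saline library 5 for 30 and wild type library 5 for 25. The summed level of the set was 1844, 1129.9, 2499, 1514, 1305, 977 and 1068 CPM in atrasentan libraries 1 to 7, 601, 725, 746, 779 and 1082 CPM in saline libraries 1 to 5 and 856, 586, 577, 1142 and 1346 CPM in wild type libraries 1 to 5. Saline library 5 and wild type libraries 4 and 5 were within the range of the atrasentan libraries, so the sums overlapped between groups. The set took 0.0871% to 0.230% of gene reads with atrasentan, 0.0568% to 0.112% with saline and 0.0610% to 0.154% in wild type. Without atrasentan libraries 1 and 3, which had the highest sums and were left out after that was seen, 16 members were called higher against saline (11.5% of all genes) and 13 against wild type (11.9% of all genes), and Fcgr2b remained lower against saline.

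Per length of exon, the members spanned more than 3 orders of magnitude. Lyz2 was the most abundant, with 224 ± 109 RPKM with atrasentan, 129.8 ± 47.1 RPKM with saline and 198 ± 116 RPKM in wild type (SD). Ctss had 70.3 ± 38.1 RPKM with atrasentan, 21.1 ± 4.46 RPKM with saline and 21.7 ± 8.43 RPKM in wild type. Fcer1g had 57.7 ± 36.8 RPKM with atrasentan, 18.5 ± 4.97 RPKM with saline and 20.5 ± 8.18 RPKM in wild type. At the other end, Cd163 had 0.132 ± 0.169 RPKM with atrasentan, 0.0673 ± 0.0421 RPKM with saline and 0.0567 ± 0.0402 RPKM in wild type. Among the Fc gamma receptors in RPKM, Fcgr3 was the most abundant in all 3 groups, and Fcgr2b, with 0.388 ± 0.130 RPKM, was the least abundant of the 4 with atrasentan.

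**Figure D4:**
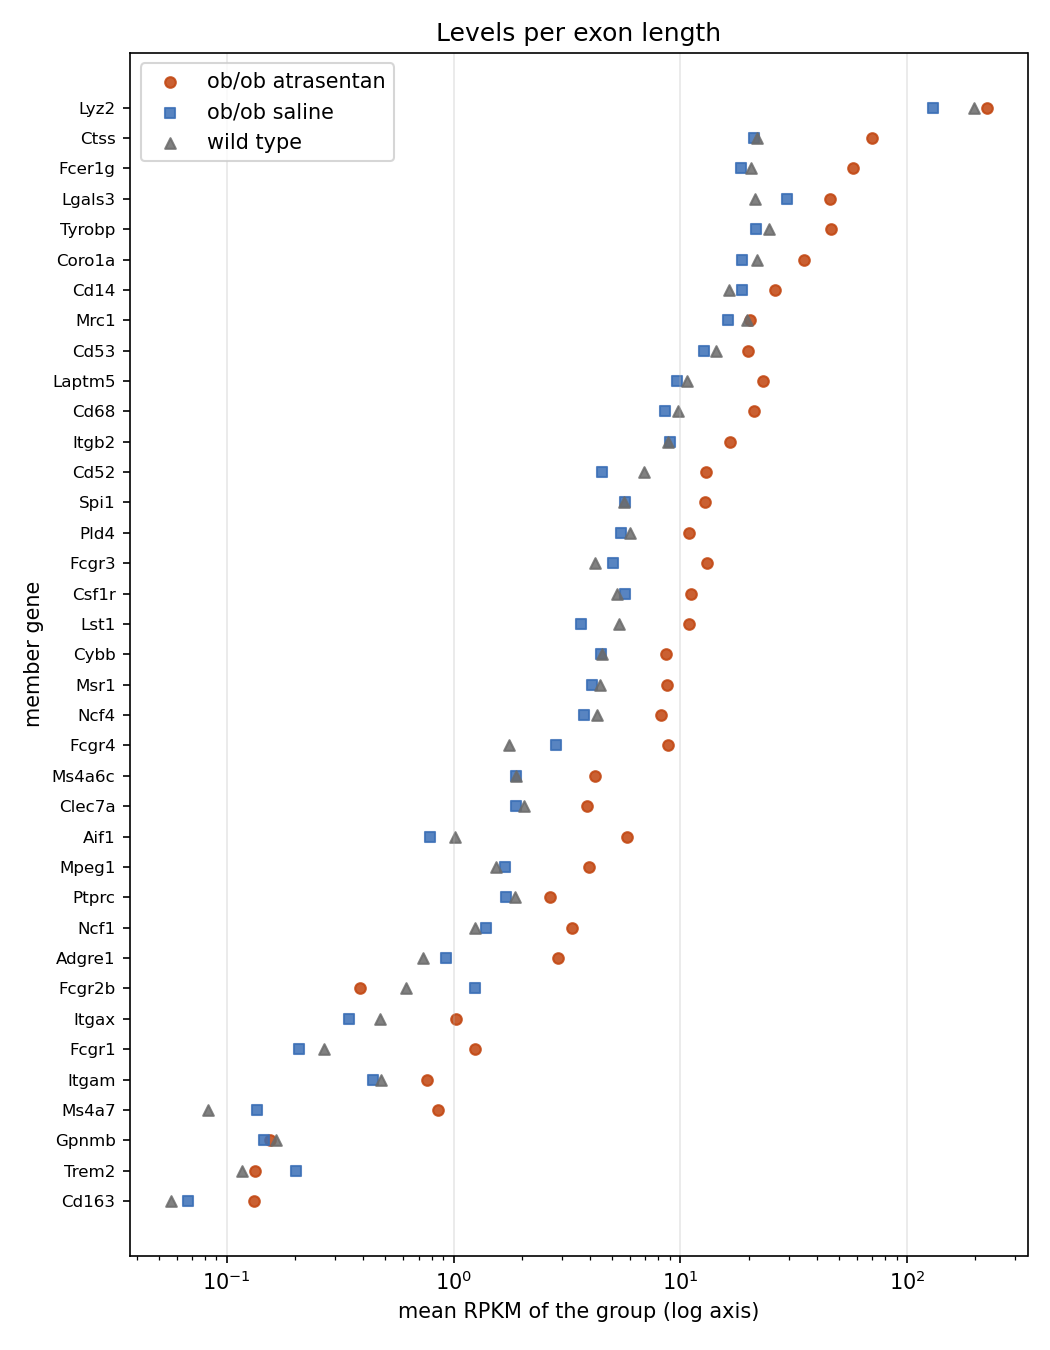
Rows are the 37 genes, ordered by their mean level over the libraries, and the x axis is the mean RPKM of each group on a log scale. Circles are atrasentan, squares saline and triangles wild type. Circles lie to the right of squares for most genes, and Fcgr2b and Trem2 are the rows where the square lies furthest right.

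Promoter sequences were read because PU.1 binds a purine-rich ETS site in many myeloid promoters. RefSeq promoters on GRCm38.p6 were at hand for 27 of the 37 members, each from 250 bases before to 50 bases after a start site. The letters GAGGAA, the core of the PU.1 site, occurred on either strand in a promoter of 16 of the 27 genes (59.3%), beside 31.3% of 27025 genes. The longer form GAGGAAGT, which contains the core, occurred in 4 of 27 (14.8%), beside 3.69% of all genes, and TTGCNNAA, a C/EBP site, in 3 of 27 (11.1%), beside 12.2%. The 4 with the longer form were Fcgr4, Ctss, Cd53 and Pld4, and they are shown with Aif1, the member with the highest fold change, and Fcgr2b, which went the other way. Each stretch runs from 60 bases before to 40 bases after the start site, 5′ to 3′ on the strand of the gene, with matches to GAGGAA or GAGGAAGT on either strand in capitals (TTCCTC and ACTTCCTC are the same letters on the other strand).
Fcgr4, chr1:171018866-171018965, plus strand: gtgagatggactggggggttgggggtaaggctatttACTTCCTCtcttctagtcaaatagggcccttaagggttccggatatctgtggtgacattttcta
Ctss, chr3:95526726-95526825, plus strand: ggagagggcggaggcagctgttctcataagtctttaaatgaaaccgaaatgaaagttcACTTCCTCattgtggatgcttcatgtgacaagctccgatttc
Cd53, chr3:106790110-106790209, minus strand: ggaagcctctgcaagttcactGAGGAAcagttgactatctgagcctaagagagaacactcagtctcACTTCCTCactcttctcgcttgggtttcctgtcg
Pld4, chr12:112760595-112760694, plus strand: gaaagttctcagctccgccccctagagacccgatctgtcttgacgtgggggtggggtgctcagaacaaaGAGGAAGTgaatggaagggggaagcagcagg
Aif1, chr17:35176013-35176112, minus strand: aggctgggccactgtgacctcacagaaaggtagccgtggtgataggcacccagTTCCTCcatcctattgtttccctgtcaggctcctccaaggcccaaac
Fcgr2b, chr1:170976032-170976131, minus strand: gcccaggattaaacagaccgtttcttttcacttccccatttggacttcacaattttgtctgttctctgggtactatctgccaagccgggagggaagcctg
The match in Ctss spans the start site and that in Fcgr4 begins at position -24, counted from 0 at the start site. Aif1, with the highest fold change, had the core at position -7 and not the longer form, and the Fcgr2b stretch held neither. A match describes letters in the reference genome, and no binding was measured. The promoters of Fcer1g and Ncf1, which rose, held no core, and those of Mrc1 and Cybb, which did not pass, held it.

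Genes that work with the members were read from lists chosen by function, with earlier results of these data known. Over all genes 15.3% were called higher and 18.5% lower in atrasentan against saline. Against wild type the shares were 14.7% and 14.5%. Of 5 tested genes of the CSF1 and GM-CSF axis, 3 rose with atrasentan against saline and none fell. Csf1, the ligand of CSF1R, averaged 544 ± 88.7 CPM with atrasentan and 384 ± 46.8 CPM with saline (log2 fold change 0.50 ± 0.13, edgeR adjusted p = 0.00669). Il34, its other ligand, averaged 50.98 ± 10.03 CPM with atrasentan and 32.7 ± 4.72 CPM with saline (0.64 ± 0.17, adjusted p = 0.00815 by edgeR), and Csf2rb2, a receptor subunit, rose too (1.32 ± 0.47, adjusted p = 0.0382). Of 12 signalling partners of the ITAM adaptors 9 rose and none fell, among them the kinase Lyn (0.55 ± 0.11), the exchange factor Vav1 (1.18 ± 0.29) and the adaptor Hcst (1.13 ± 0.31). Against wild type 1 of the 5 axis genes and 7 of the 12 signalling partners were called higher.

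Among the oxidase partners, the GTPase Rac2 rose with atrasentan against saline (log2 fold change 0.92 ± 0.30, edgeR adjusted p = 0.0267). Cyba, the membrane partner of Cybb that many other cells share, did not pass (-0.29 ± 0.20, edgeR adjusted p = 0.261). Nox4, the oxidase of tubule and vascular cells, fell to 11.2 ± 8.66 CPM with atrasentan, against 147 ± 109 CPM with saline (-3.71 ± 0.53, edgeR adjusted p = 0.000205), and the other 2 tested oxidase genes of other cells did not pass. The summed level of this list was highest in saline libraries 1 and 3 (273 and 251 CPM), which also held the most proximal tubule RNA. The part of tubule content in the fall of Nox4 was not tested. Of the 12 other myeloid transcription factors 3 rose against saline (15.3% of all genes), Irf8 (0.75 ± 0.17), Runx1 (1.00 ± 0.27) and Irf5 (0.99 ± 0.27). Against wild type 8 rose (14.7% of all genes) and 1 fell (14.5% of all genes).

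Markers of macrophage states did not move as 1 block. The counts below stand beside 15.3% of all genes called higher and 18.5% lower in atrasentan against saline. Of 11 tested resident macrophage markers 8 rose against saline, among them, by lowest p, the complement subunits C1qc (log2 fold change 3.23 ± 0.58, edgeR adjusted p = 0.000693) and C1qb (3.25 ± 0.61, adjusted p = 0.000953) and the receptor Axl (0.98 ± 0.18), which mesangial and vascular cells also make. The median over the 11 was 1.77, above the value of Axl. Of 10 monocyte markers 3 rose, S100a4 (0.85 ± 0.23) and the chemokine receptor Ccr2 (1.09 ± 0.33) among them, and 1 fell, Nr4a1 (-1.23 ± 0.33), which many stressed cells induce. Of 10 lipid-associated macrophage markers 6 rose, Lpl (0.59 ± 0.11) and Apoe (0.69 ± 0.17) among them, and 1 fell, Spp1 (-2.06 ± 0.49), and the kidney's own cells express most of this list. None of 5 tested alternative activation markers was called against saline by edgeR, and DESeq2 called 0. In this list 1 was at an unadjusted p under 0.05, Clec10a, at 0.70 ± 0.33 (edgeR adjusted p = 0.105). Against wild type, Chil3 was called higher with atrasentan (2.63 ± 0.54, edgeR adjusted p = 0.00172, 14.7% of all genes higher). Arg1, with a mean of 0.383 CPM, was called lower there (-2.96 ± 0.52, edgeR adjusted p = 0.000455, 14.5% of all genes lower). It was also lower with saline than in wild type (-2.31 ± 0.57, edgeR adjusted p = 0.0299). Of 8 tested classical activation markers 3 rose, Cd86 (1.31 ± 0.38), Cxcl9 (2.91 ± 0.93) and Nos2 (0.53 ± 0.19).

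Markers of other blood cells partly rose with the members, in lists to be read beside 15.3% of all genes called higher against saline. Of 9 tested neutrophil markers 3 rose against saline, Camp, Ngp and Ltf, and the summed level ran over 19.5 to 334 CPM with atrasentan, 15.3 to 219 with saline and 19.4 to 44.2 in wild type. The top values were single libraries: atrasentan library 3, also the highest of its group for 30 of the 37 members, while the other 6 had at most 80.9 CPM, and saline library 2, while the other 4 had at most 43.7 CPM. Against wild type 5 of the 9 neutrophil markers were called higher with atrasentan (14.7% of all genes). With saline against wild type edgeR called 0, and the median log2 fold change of the list was 1.67. In that comparison 6 of the 9 had an unadjusted p under 0.05, beside 3825 of all 17766 genes. The neutrophil genes Ly6g, Elane and Mpo were too low to test. Of 9 dendritic cell markers 5 rose, Flt3 (log2 fold change 1.30 ± 0.29), Fscn1 (0.49 ± 0.13) and Xcr1 (2.47 ± 0.69) among them. Xcr1 was low, with a mean of 1.45 CPM with atrasentan and 0.259 CPM with saline. The dendritic cell sum ran over 301 to 378 CPM with atrasentan, 258 to 396 with saline and 238 to 354 in wild type. None of 3 tested mast cell markers was called against saline by edgeR, 0 were at an unadjusted p under 0.05 and 0 were called by DESeq2, with the lowest adjusted p of 0.113 for Cpa3, and the sum was at most 3.86 CPM in any library. Red cell markers, of which 5 of 6 rose, ran over 263 to 936 CPM with atrasentan, 69.3 to 385 with saline and 95.97 to 455 in wild type. The part of these cells in the change of the members they share, such as Itgam, Itgax, Lyz2 and Cybb, was not tested.

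The makeup of the kidney tissue also differed between the groups. With atrasentan against saline all 10 proximal tubule markers fell, and 5 of 10 podocyte markers fell (18.5% of all genes). In the same comparison 7 of 10 glomerular endothelium and 5 of 9 mesangium markers rose (15.3% of all genes). The podocyte sum ran over 2147 to 4966 CPM with atrasentan, 4547 to 9259 with saline and 8398 to 13343 in wild type, the endothelial sum over 12887 to 16933 CPM with atrasentan, 9198 to 11634 with saline and 10505 to 12014 in wild type and the mesangial sum over 7924 to 13713 CPM with atrasentan, 5625 to 7769 with saline and 5072 to 6765 in wild type. In the fit with proximal tubule markers as a covariate, atrasentan against saline had a median log2 fold change of the members of 0.93 beside 0.11 over all genes. Against wild type, where proximal tubule content differed less, 10 members were called higher in that fit (11.7% of all genes). Without saline libraries 1 and 3, 11 members were called higher against saline (5.52% of all genes), and 17 were with the percentage of reads outside genes as the covariate (3.17% of all genes). With that last covariate the median log2 fold change of the members against saline was 2.08, beside -0.02 over all genes.

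**Figure D5:**
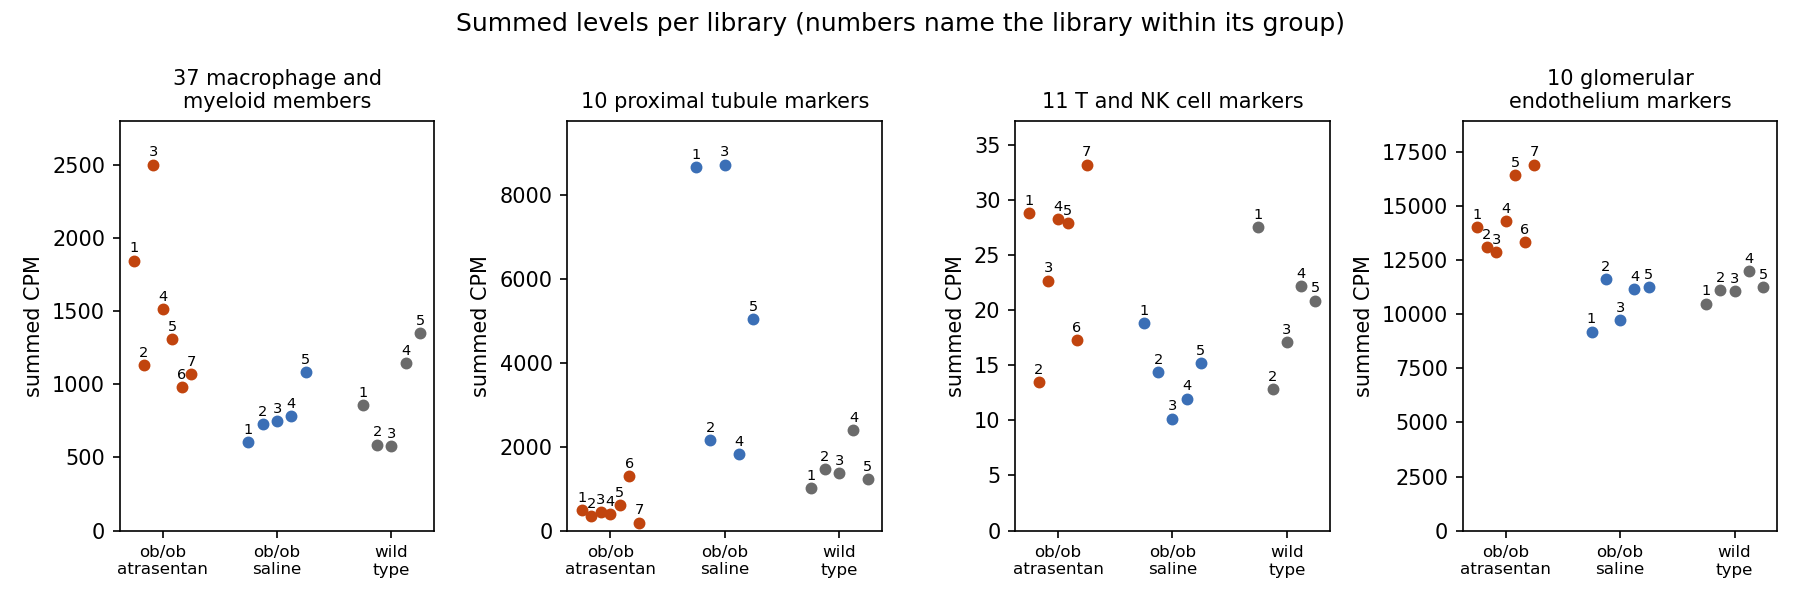
Each panel is a gene list and the y axis is its summed level in CPM, from 0. Points are libraries and the number beside a point names the library within its group. The macrophage and myeloid sum is 977 to 2499 CPM with atrasentan, 601 to 1082 CPM with saline and 577 to 1346 CPM in wild type. Saline libraries 1 and 3, with the highest proximal tubule sums, have macrophage sums of 601 and 746 CPM.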

How the data were processed

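Poly(A) RNA of glomeruli-enriched cortex of BTBR mice was sequenced in 17 libraries. The authors deposited raw read counts for 53379 genes. Per the submitters' processing notes the tools were STAR, HTSeq, edgeR, limma and DESeq2 and the build was GRCm38. How strand was set in counting, and which annotation release was used, is not stated there. The count table ends in 5 lines that name no gene, which were kept out of library sizes and tests. Reads outside genes were 3.17% to 8.58% of a library, reads on more than 1 gene 2.93% to 3.37%, and reads with more than 1 place in the genome 23.4% to 31.8%. The authors also deposited normalized log2 values for 17338 genes, whose transform is not stated and which served for 1 alternative only.

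Symbols came from GENCODE M21 on GRCm38, which matched 53274 gene IDs (50604 with their version). Coordinates are 1-based. The test was edgeR's quasi-likelihood F test (glmQLFit, glmQLFTest; edgeR 4.0.16, R 4.3.3) on the deposited counts, two-sided, with all 17 libraries in 1 fit (common biological coefficient of variation 0.312), TMM scaling and filterByExpr, which kept 17766 genes. P-values were adjusted by Benjamini-Hochberg over all tested genes, and a gene was called at a value under 0.05. Beside each log2 fold change stands its standard error. Levels are CPM with TMM-scaled library sizes, or RPKM over the union of exons, and outliers were looked for on log2 CPM with a prior count of 2. The procedure was tested on simulated counts, which held no difference in tubule content or library quality between groups and so cannot speak to those. DESeq2 1.42.0 and limma 3.58.1 gave alternatives. All members may be named. Values in every library are given for the 8 members with the lowest p in atrasentan against saline, for members called the other way and for the 3 with the highest RPKM, and at most 3 genes of each companion list, those with the lowest p, are named with values. The exception is Lep, as the mutated gene. The members, the companion lists and the rules were chosen with earlier results of these data known. Replicate numbers follow the deposited order, only name a library and pair nothing. No 2 libraries of a group were repeats of each other (chi-square per degree of freedom 26.1 to 268.7 over 41 pairs). The labels give no animal numbers, so each library is taken as 1 mouse, and p-values measure the spread between these libraries. Protein sequences of the members were not used here. A result that needs an item withheld for evaluation is not reported here.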

Additional observations from a re-analysis of the deposited data

Results flagged for a closer look

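For each member in each group it was asked whether 1 library stood apart from the rest, by the gap to its neighbour over the range of the group on log2 CPM. Of 111 pairs of member and group, 5 were picked out, and chance picks about 1 in 20. Fcgr2b had 3.88 CPM in atrasentan library 3, against 1.63 to 2.34 CPM in the other 6. Laptm5 had 55.1 CPM in saline library 5, against 30.3 to 35.2 CPM in the other 4. Cd14 had 47.9 CPM in saline library 2, against 26.8 to 30.01 CPM in the other 4. Fcgr4 had 0.853 CPM in wild type library 3, against 2.30 to 2.80 CPM in the other 4. Gpnmb had 0.0443 CPM in wild type library 1, against 1.10 to 1.59 CPM in the other 4. Leaving out any 1 of these libraries kept the direction and the call of Fcgr2b, Laptm5, Cd14 and Fcgr4 in atrasentan against saline.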

How the results depend on the processing

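The report's 27 members higher with atrasentan than with saline were 26 to 29 with other scalings, no low-count filter, the 2 groups alone, limma-voom, DESeq2 or the authors' normalized table. They were 0 with the proximal tubule covariate, 17 with reads outside genes as a covariate, 11 without saline libraries 1 and 3, and 16 without atrasentan libraries 1 and 3, an alternative chosen after seeing the data. With each library left out in turn they were 18 (without saline library 1) to 30, and 18 of the 27 were called every time. The 1 member lower was 0 with the proximal tubule covariate and 1 to 1 with a library left out. For saline against wild type, DESeq2 called 1 higher (Fcgr2b, beside 7.80% of all genes), leaving out a library gave 0 to 1, and lower calls stayed at 0. The members above 0, 14 in the report, were 10 to 26 with a library left out. Against wild type the 21 higher with atrasentan were 10 with the proximal tubule covariate, 3 with reads outside genes (1.49% of all genes) and 13 without atrasentan libraries 1 and 3, and 16 to 28 with a library left out. The 0 lower became 1 (Fcgr2b) with the 2 groups alone and 0 to 1 with a library left out. The cause was not tested in any of these.

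In the 2 comparisons with atrasentan the sign of the log2 fold change turned for 6 members. In atrasentan against saline, Fcgr2b turned to 0.0076 and Trem2 to 0.49 with the proximal tubule covariate, and Cd163 to -1.68 and Gpnmb to -1.14 with reads outside genes. Gpnmb also turned to -0.26 with limma-voom, -0.055 with the authors' table and -0.046 without atrasentan libraries 1 and 3, and lay between -0.19 and 0.54 with a library left out. In atrasentan against wild type, Fcgr2b turned to 0.15 and Gpnmb to 0.48 with the proximal tubule covariate, Cd163 to -1.81 with reads outside genes, Lyz2 to -0.21 without atrasentan libraries 1 and 3, Mrc1 to -0.040 with upper-quartile scaling and Gpnmb to 0.012 with limma-voom. With a library left out, Lyz2 lay between -0.011 and 0.54, Mrc1 between -0.065 and 0.14 and Gpnmb between -0.39 and 0.13. No paired analysis was possible because the labels number no replicates. Trem2, Cd163 and Gpnmb lay under 3 CPM in every library, so they rest on few reads and small changes of them were not detectable at this depth.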
